A study of Homo sapiens with 36 samples.

Results

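The 3 trefoil factor genes (TFF1, TFF2 and TFF3) and 7 further genes that mark goblet cells or their secretion (FCGBP, CLCA1, SPDEF, ATOH1, AGR2, SPINK4 and REG4) were taken by gene symbol from a table of mRNA read counts. All 10 were found among its 60591 genes. The counts came from 18 libraries of human colon adenocarcinoma lines, 9 of Caco-2 and 9 of HT-29, in 6 groups of 3. Caco-2 cells had been kept under differentiating conditions for 21 days, which gives an enterocyte-like layer, and HT-29 cells were grown in another medium for a time the labels do not give, so line, medium and culture cannot be told apart in any comparison between the lines. Treated cells received 300 µM CoCl2 or 5 µM of an oxyquinoline derivative (OD, labelled Oxy) for 24 hours. Control cells received 0.5 µl of the solvent DMSO per ml of medium, the amount that came with OD. The labels give no solvent for the CoCl2 cells. The study's methods, written for Caco-2, state that these cells and the controls received DMSO at 0.5%, which is not the amount on the labels. Both agents are used to stabilise hypoxia-inducible factor in cells with normal oxygen, and the question was how the cells respond to this chemical model of hypoxia. The labels give the 3 libraries of a group as replicates without saying whether they came from separate cultures, and the study's methods call those of Caco-2 biological replicates. For HT-29 the tests measure the spread between these libraries, which may be technical.

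Goblet cells are the mucus-secreting cells of the intestinal lining. The transcription factor ATOH1 commits a progenitor to the secretory lineage, and SPDEF acts after it to complete the goblet cell programme. Mature goblet cells store mucin together with trefoil peptides, which help the epithelium to reseal after injury, with the mucin-binding protein FCGBP and with the protease CLCA1, and they depend on AGR2, a disulfide isomerase of the endoplasmic reticulum, to fold mucin. SPINK4 is a protease inhibitor of the Kazal type made by goblet cells, and REG4 is a secreted lectin of goblet and deep crypt cells. TFF1 and TFF2 belong mainly to the mucous cells of the stomach and TFF3 to intestinal goblet cells.

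Libraries held 12925719 to 22332639 counted reads, so that the floor used here, 3 counts, stood at 0.134 to 0.232 CPM (counts per 1000000 reads). CPM values below carry TMM factors (trimmed mean of M values) computed within a line. The marker sums in this paragraph are an exception, with factors computed over all 18 libraries. A gene was called where the false discovery rate (FDR) of edgeR's quasi-likelihood test was under 0.05 and the log2 fold change (log2FC) passed 1 in either direction, and "rose" and "fell" stand for called genes only. The median standard error (SE) of a log2FC was 0.127 (CoCl2) and 0.126 (OD) among Caco-2 libraries, and 0.0927 and 0.0855 among those of HT-29. The 6 epithelial markers were above the floor in every group. Summed over 10 enterocyte markers (among them SI, ANPEP and VIL1), the control libraries reached 7342 to 7729 CPM in Caco-2 with 10 markers above the floor, and 231 to 233 CPM in HT-29 with 5 above it (ALPI, LCT, APOA4, APOB and SLC15A1 at or under it). The sum was 5131 to 5780 CPM with CoCl2 and 5944 to 6311 CPM with OD in Caco-2, and 39.2 to 44.6 CPM and 101 to 109.6 CPM in HT-29. The part of this shift in the values below was not tested. These are bulk RNA measurements, in which fewer cells making a gene and less of its RNA per cell cannot be told apart.

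The promoters of FCGBP, ATOH1 and SPINK4 are printed because these genes fell under both agents in HT-29. Each line gives the 250 bases before the annotated transcription start, 5′ to 3′ on the gene's strand, from RefSeq on GRCh38.p14. Capitals mark matches on either strand to ACGTG or GCGTG, the cores of a hypoxia response element, to CAGATG or CAGCTG, E-boxes of the kind that ATOH1 and related factors bind, and to TATAAA, the TATA box.
FCGBP: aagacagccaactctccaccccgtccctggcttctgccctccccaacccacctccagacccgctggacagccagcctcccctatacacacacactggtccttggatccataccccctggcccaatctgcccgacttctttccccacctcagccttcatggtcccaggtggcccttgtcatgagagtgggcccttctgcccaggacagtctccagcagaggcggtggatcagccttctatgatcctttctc
ATOH1: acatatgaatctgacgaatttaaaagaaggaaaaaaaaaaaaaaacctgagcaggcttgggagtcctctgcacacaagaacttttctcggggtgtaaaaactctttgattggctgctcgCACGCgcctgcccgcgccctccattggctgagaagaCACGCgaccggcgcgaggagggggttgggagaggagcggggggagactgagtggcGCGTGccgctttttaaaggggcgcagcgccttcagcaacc
SPINK4: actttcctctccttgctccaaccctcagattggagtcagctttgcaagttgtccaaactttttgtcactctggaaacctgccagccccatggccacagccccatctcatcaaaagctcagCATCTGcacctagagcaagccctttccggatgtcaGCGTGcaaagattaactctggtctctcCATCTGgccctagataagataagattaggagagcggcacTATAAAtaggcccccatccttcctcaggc
The FCGBP stretch lay at chr19:39934635-39934884 on the minus strand and held none of these letters. The ATOH1 stretch at chr4:93828503-93828752 on the plus strand held GCGTG 3 times, starting 131, 95 and 40 bases before the start, of which the first 2 were on the opposite strand. The SPINK4 stretch at chr9:33239917-33240166 on the plus strand held GCGTG 95 bases before the start, CAGATG on the opposite strand at 130 and 68, and TATAAA at 29, and lies in an intron of a longer annotated SPINK4 transcript. No match overlapped another. Among 35116 RefSeq promoters cut to the same 250 bases, 43.2% held ACGTG or GCGTG, 24.3% held CAGATG or CAGCTG and 10.7% held TATAAA. Of the 10 genes, 7 had a promoter in the RefSeq table, and 5 of those held a hypoxia response element core. REG4 also fell under both agents in HT-29, but its stretch overlaps a first exon of another annotated REG4 transcript and is not shown. That stretch held ACGTG 241 bases before the start and TATAAA at 31. These letters are a description and not evidence of binding.

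Before any treatment the 2 lines made different sets of these genes. To compare genes with each other, CPM scaled over all 18 libraries was divided by exon length. AGR2 came first in both lines, at 266 ± 18.8 CPM per kb in Caco-2 and 222 ± 11.0 in HT-29 (SD, n = 3). After it stood the trefoil factors in Caco-2, where TFF1 reached 50.2 ± 4.86, TFF3 43.3 ± 5.03 and TFF2 19.8 ± 1.81 CPM per kb, followed by REG4 at 5.90 ± 0.414. With the exon lengths of GENCODE 44, TFF1 and TFF3 did not differ beyond their spread. In HT-29 the second place was held by SPDEF at 16.9 ± 0.374 CPM per kb, followed by TFF3 at 12.0 ± 2.21 and REG4 at 10.0 ± 0.594, and TFF3 and REG4 did not differ beyond their spread. SPINK4 at 2.97 ± 0.196, ATOH1 at 1.74 ± 0.125, TFF1 at 1.65 ± 0.503 and FCGBP at 1.46 ± 0.0997 CPM per kb came next, with the TFF1 spread reaching both of its neighbours, and TFF2 was at 0.425 ± 0.204. The TFF3 values rest on an exon length of 922 bases, while the deposited log2 table implied 1162 bases. With that length TFF3 stood at 34.4 ± 3.99 CPM per kb in Caco-2, below TFF1 beyond their spread, and at 9.51 ± 1.76 in HT-29, next to REG4.

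**Figure D1:**
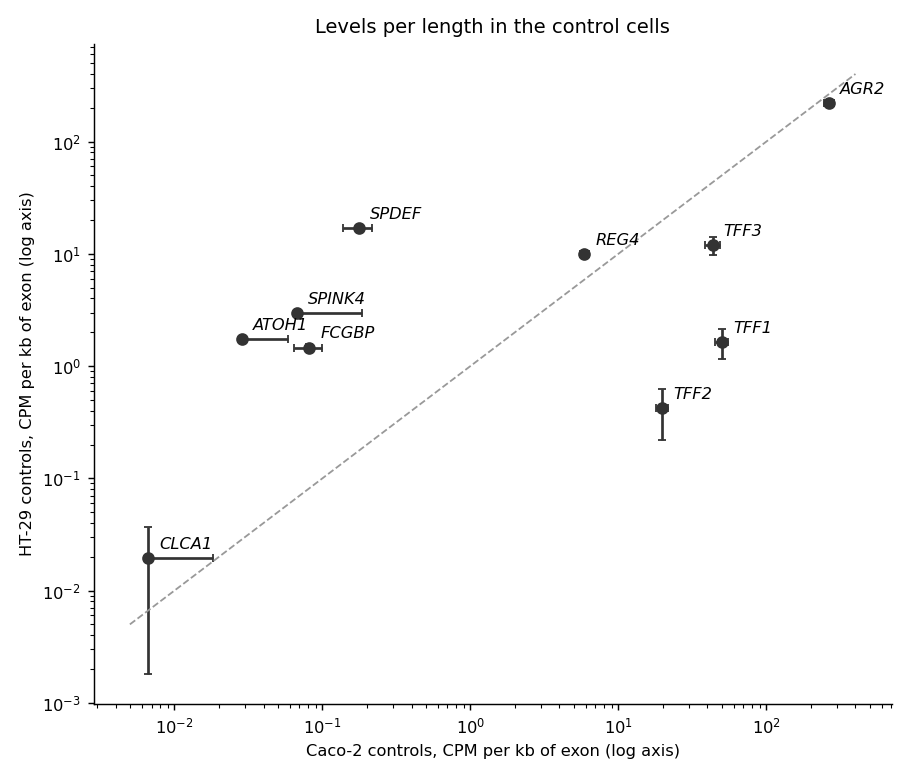
Mean level of each gene in the 3 control libraries of Caco-2 (horizontal) and of HT-29 (vertical), in CPM per kb of exon on log axes, with SD bars (a lower bar is left out where the SD exceeds the mean) and a dashed line of equal levels. TFF1, TFF2 and TFF3 lie below the line, SPDEF, ATOH1, SPINK4 and FCGBP far above it, and AGR2 and REG4 near it.

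Of the 9 genes tested between the controls, 4 were called higher in HT-29 and 3 lower, a comparison in which 45.8% of all genes tested were called (21.6% higher, 24.2% lower). SPDEF, ATOH1 and SPINK4 passed the filter of this fit only through HT-29, and TFF2 only through Caco-2. These counts therefore describe the list and support nothing further. SPDEF was 93.4-fold higher in HT-29 (log2FC 6.54, SE 0.204), on 4 to 6 counts per Caco-2 control library, and FCGBP 17.9-fold higher (log2FC 4.16, SE 0.189). For ATOH1, 219 counts over the HT-29 controls stood against 3 over those of Caco-2, a ratio of 59.9 (95% counting interval 20.2 to 293). For SPINK4 it was 113 counts against 2, a ratio of 46.4 (12.5 to 388). TFF2 was 43.4-fold lower in HT-29 (log2FC -5.44, SE 0.233), on 2 to 9 counts per control library there. TFF1 was 29.96-fold lower (log2FC -4.90, SE 0.184) and TFF3 3.56-fold lower (log2FC -1.83, SE 0.110). REG4 and AGR2 were within the fold limit, REG4 1.70-fold higher in HT-29 (log2FC 0.77, FDR = 2.370e-08) and AGR2 1.19-fold lower (log2FC -0.26, FDR = 0.00104). The 3 genes called higher in Caco-2 were the trefoil genes, and the 4 called higher in HT-29 were SPDEF, ATOH1, FCGBP and SPINK4. Of 34 other goblet cell and mucus genes, 30 were tested between the controls, with 15 called higher in HT-29 and 9 lower. Those higher included ERN2 (log2FC 9.42), MLPH (6.47) and MUC2 (5.997). In the Caco-2 control libraries ERN2 had only 0 to 1 counts and MUC2 2 to 9. ZG16, a lectin of goblet cell granules, was among those lower in HT-29 (log2FC -7.42). It stood at 13.3 ± 2.60 CPM in the Caco-2 controls and had 1 to 2 counts per library in those of HT-29.

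The trefoil factor genes lie side by side on chromosome 21 (GRCh38, GENCODE 44, minus strand): TFF3 at 42311667 to 42315409, TFF2 at 42346357 to 42350997 and TFF1 at 42362282 to 42366535, together 54.9 kb. In Caco-2 the 3 members lay lower with CoCl2, and TFF2 fell.

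TFF2 stood at 12.7, 15.2 and 14.4 CPM in the Caco-2 controls, at 5.58, 6.10 and 4.33 CPM with CoCl2, and at 11.6, 9.97 and 8.96 CPM with OD. No library overlapped between these 3 groups. TFF2 fell 2.67-fold with CoCl2 (log2FC -1.42, SE 0.157, FDR = 2.698e-08), while with OD it was 1.38-fold lower and short of the fold limit (log2FC -0.47, SE 0.144, FDR = 0.00918). In HT-29 TFF2 had only 2, 7 and 9 counts in the controls, 8, 10 and 6 with CoCl2 and 13, 8 and 13 with OD, too few for the filter of that line's fit. As CPM that was 0.129 to 0.383, 0.494 to 0.691 and 0.466 to 0.692, so both treated groups lay above the controls. A fit over all 18 libraries gave a log2FC of 0.89 (SE 0.447, FDR = 0.0750) for CoCl2 and 1.01 (SE 0.413, FDR = 0.0367) for OD in HT-29. TFF2 entered that fit only through its Caco-2 counts, so these values are not read as a test of TFF2 in HT-29.

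TFF3, the trefoil peptide of intestinal goblet cells, was lower with both agents in both lines without passing the fold limit anywhere. Its Caco-2 values were 36.0, 45.5 and 40.5 CPM in controls, 23.5, 21.4 and 22.2 CPM with CoCl2 and 27.8, 25.5 and 28.2 CPM with OD, with no overlap between the groups. The log2FC was -0.86 with CoCl2 (SE 0.102, FDR = 7.838e-08) and -0.58 with OD (SE 0.0999, FDR = 3.364e-05). HT-29 controls held TFF3 at 9.68, 9.30 and 12.7 CPM, against 7.62, 5.60 and 6.67 CPM with CoCl2 and 5.64, 6.46 and 6.28 CPM with OD. There both treated groups lay below every control and overlapped each other, with a log2FC of -0.70 (SE 0.135, FDR = 3.659e-05) and -0.81 (SE 0.128, FDR = 3.563e-06). Scaled by library size alone, TFF3 passed the fold limit with CoCl2 in both lines (log2FC -1.18 in Caco-2 and -1.33 in HT-29).

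In the fits made for each line alone, TFF1 was the one trefoil gene that rose, and only with OD in HT-29. In Caco-2 it was at 22.4, 27.0 and 26.0 CPM in controls, at 19.3, 16.4 and 15.4 CPM with CoCl2 and at 27.9, 26.2 and 36.5 CPM with OD. The CoCl2 libraries lay below all controls (log2FC -0.57, SE 0.128, FDR = 4.617e-04), and the OD libraries overlapped the controls (log2FC 0.27, SE 0.122, FDR = 0.0729). In HT-29 TFF1 was low, at 0.581, 1.04 and 0.713 CPM in controls, 0.822, 0.830 and 1.23 CPM with CoCl2 and 2.28, 2.09 and 2.13 CPM with OD, on 9 to 44 counts per library. It rose 2.77-fold with OD (log2FC 1.47, SE 0.249, FDR = 9.672e-06), the OD libraries lying above all others of the line. With CoCl2 its groups overlapped (log2FC 0.29, SE 0.318, FDR = 0.405), and the sign turned when libraries were scaled by size alone (log2FC -0.34).

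**Figure D2:**
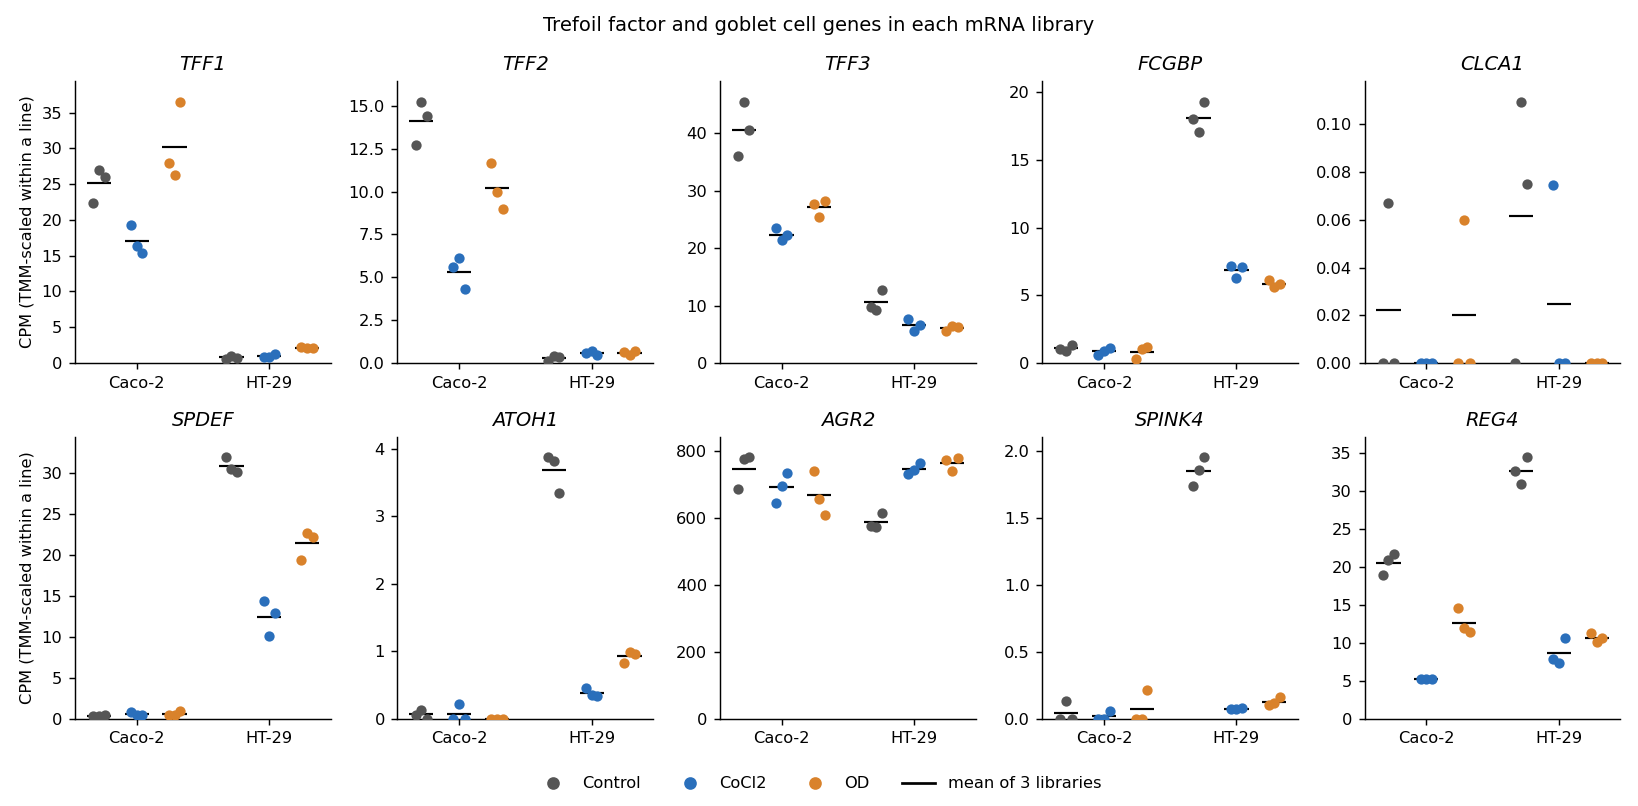
CPM of each gene in each of the 18 mRNA libraries (linear axes from 0, scaled by TMM within a line), with points for single libraries and lines for the mean of 3. In HT-29 all treated libraries lie below the controls for FCGBP, SPDEF, ATOH1, SPINK4, TFF3 and REG4, and TFF1 rises with OD; CLCA1 points stand for 0 to 2 counts.

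The 2 lineage factors were measurable in HT-29. ATOH1 (chr4:93828753-93830964, plus strand) stood at 3.87, 3.83 and 3.34 CPM in the HT-29 controls, at 0.448, 0.346 and 0.329 CPM with CoCl2 and at 0.828, 0.989 and 0.958 CPM with OD. The 3 groups did not overlap, with CoCl2 lowest. ATOH1 fell 9.55-fold with CoCl2 (log2FC -3.26, SE 0.273, FDR = 1.949e-11) and 3.93-fold with OD (log2FC -1.97, SE 0.203, FDR = 2.547e-09), on 4 to 6 counts per CoCl2 library and 16 to 18 per OD library. In Caco-2 ATOH1 had 0 to 3 counts in every library and was not tested.

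SPDEF (chr6:34537802-34556333, minus strand), the factor that acts after ATOH1, was at 31.9, 30.5 and 30.2 CPM in HT-29 controls, 14.3, 10.2 and 12.9 CPM with CoCl2 and 19.4, 22.8 and 22.2 CPM with OD. Again the groups were separate and in the order control, OD, CoCl2. SPDEF fell 2.48-fold with CoCl2 (log2FC -1.31, SE 0.0936, FDR = 6.821e-13), and with OD it was 1.44-fold lower and within the fold limit (log2FC -0.52, SE 0.0811, FDR = 2.515e-06). The 9 Caco-2 libraries held 4 to 13 counts of SPDEF, with 0.344 ± 0.0737 CPM in controls, 0.585 ± 0.216 under CoCl2 and 0.600 ± 0.277 under OD, under the filter of that line's fit.

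The goblet cell products FCGBP, SPINK4 and REG4 fell in HT-29 under both agents. FCGBP (chr19:39863323-39934626, minus strand), which carries mucin-like domains and is crosslinked into mucus, was at 18.1, 17.1 and 19.3 CPM in HT-29 controls, 7.17, 6.29 and 7.08 CPM with CoCl2 and 6.16, 5.59 and 5.85 CPM with OD. Both treated groups lay far under the controls. The fall was 2.66-fold with CoCl2 (log2FC -1.41, SE 0.102, FDR = 8.875e-13) and 3.10-fold with OD (log2FC -1.63, SE 0.0980, FDR = 5.520e-14). With limma on the values deposited by the authors, log2 of RPKM plus 1, the same differences were -0.69 and -0.74 and within the fold limit. The added 1 shrinks differences of genes at such a low RPKM, so these values are not on the same scale. Caco-2 had 5 to 21 counts of FCGBP per library, and its groups overlapped (log2FC -0.27, SE 0.421, with CoCl2 and -0.33, SE 0.421, with OD), with 95% intervals from -1.14 to 0.60 and from -1.20 to 0.54.

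SPINK4 (chr9:33218365-33248567, plus strand) had 27, 34 and 52 counts in the HT-29 controls, 1 in each CoCl2 library and 2, 2 and 3 with OD. Both treated groups were at or under the floor of 3 counts. Pooled over libraries, the controls exceeded CoCl2 by a ratio of 24.9 (95% counting interval 8.32 to 123) and OD by 14.8 (6.94 to 37.6). The gene was called by edgeR in both comparisons (FDR = 5.391e-10 and 4.922e-10). SPINK4 passed the filter only through the controls, where it is high, so these calls describe the counts and are no further support. In Caco-2 it had 0 to 3 counts in every library. BAG1, which overlaps SPINK4 on the opposite strand, had a mean of 36.7 CPM in the HT-29 controls, 56.1 CPM under CoCl2 and 31.6 CPM under OD, so that CoCl2 libraries with 663 to 811 counts of BAG1 held 1 of SPINK4.

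REG4 (chr1:119794017-119811580, minus strand) was called with CoCl2 in both lines. It was the only such gene among those tested in both, TFF1, TFF3, FCGBP, AGR2 and REG4. Caco-2 controls had 18.9, 20.9 and 21.7 CPM, CoCl2 libraries 5.17, 5.16 and 5.19 CPM and OD libraries 14.6, 11.9 and 11.4 CPM. HT-29 controls had 32.7, 30.9 and 34.4 CPM, CoCl2 libraries 7.92, 7.33 and 10.6 CPM and OD libraries 11.3, 10.1 and 10.6 CPM. In both lines every treated library lay below every control, and CoCl2 and OD overlapped in HT-29 but not in Caco-2. With CoCl2 REG4 fell 3.95-fold in Caco-2 (log2FC -1.98, SE 0.138, FDR = 7.593e-12) and 3.83-fold in HT-29 (log2FC -1.94, SE 0.0991, FDR = 4.862e-16). It fell 3.07-fold with OD in HT-29 (log2FC -1.62, SE 0.0892, FDR = 8.954e-15), and the Caco-2 difference with OD, 1.62-fold, was inside the fold limit (log2FC -0.70, SE 0.123, FDR = 4.727e-05).

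CLCA1 (chr1:86468368-86500259, plus strand) had 0 to 2 counts in each of the 18 libraries and gives no comparison at this depth. AGR2 (chr7:16791811-16833433, minus strand), with 7748 to 16400 counts per library, was the most abundant gene of the list and was called in none of the 4 comparisons with control. Its HT-29 values were 574, 574 and 616 CPM in controls, 729.8, 742 and 763 CPM with CoCl2 and 774, 741 and 779 CPM with OD. Both treated groups lay above the controls, by a log2FC of 0.34 with CoCl2 (SE 0.0437, FDR = 6.965e-08), which turned to -0.29 when libraries were scaled by size alone, and of 0.38 with OD (SE 0.0435, FDR = 1.945e-08). The Caco-2 groups overlapped, with a log2FC of -0.11 (95% interval -0.28 to 0.06) and -0.16 (-0.33 to 0.01).

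**Figure D3:**
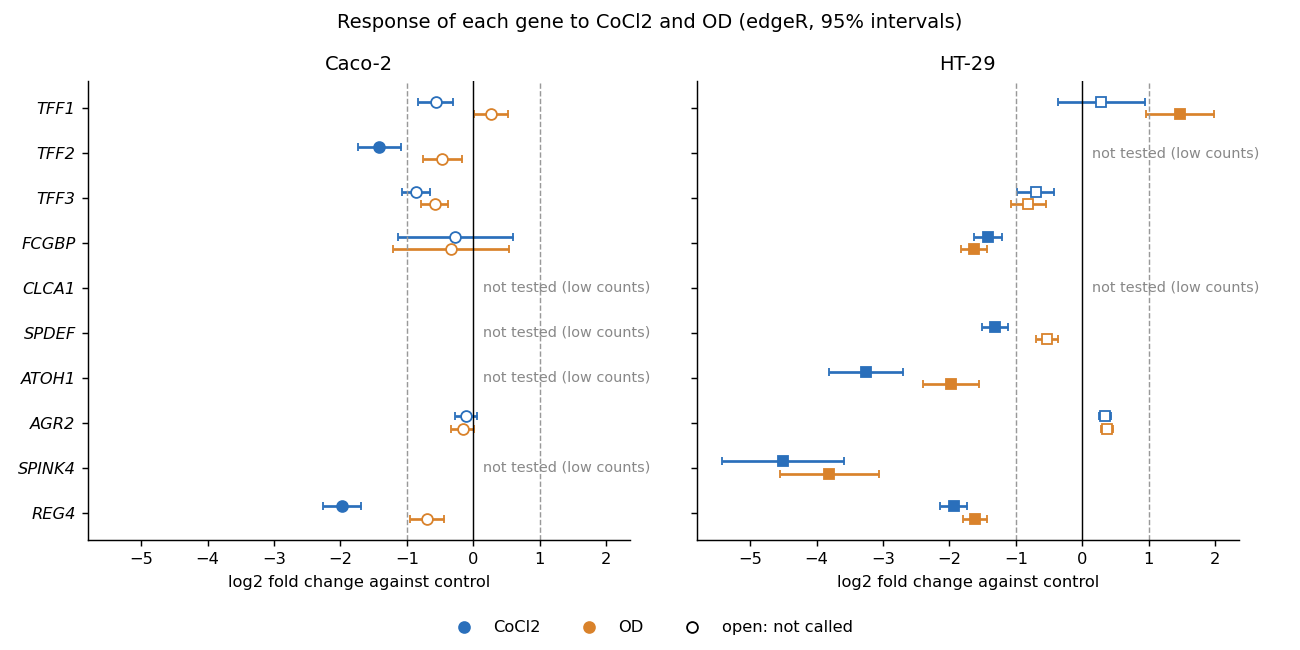
Log2 fold change against control with its 95% interval for each gene tested, CoCl2 in blue and OD in orange, Caco-2 on the left and HT-29 on the right; filled symbols were called and dashed lines mark the fold limit. SPINK4 and ATOH1 lie farthest to the left in HT-29, REG4 is filled with CoCl2 in both lines, and TFF1 with OD in HT-29 is the one filled symbol to the right of 0.

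Counted over the list, CoCl2 in Caco-2 called 2 of 6 genes tested, both lower (REG4 and TFF2), where 23.4% of all genes tested were called (9.13% higher, 14.2% lower). OD in Caco-2 called 0 of 6 in edgeR and 0 in DESeq2, with 4 of 6 at an unadjusted p under 0.05 and 3 of 6 at an FDR under 0.05, against 11.7% of all genes called (4.43% higher, 7.27% lower) and 50.4% at that FDR alone. CoCl2 in HT-29 called 5 of 8, all lower, where 41.3% of all genes were called (17.4% higher, 23.9% lower). OD in HT-29 called 4 lower and 1 higher of 8, where 17.1% of all genes were called (9.5% higher, 7.57% lower). The median log2FC of the genes tested was -0.71, -0.40, -1.36 and -1.22 in these 4 comparisons, beside medians of -0.03, -0.02, -0.03 and 0.01 over all genes tested. The members that passed the filter in HT-29 include SPINK4, which passed through the control group alone. ATOH1 passed through the control and OD groups and not through CoCl2. These counts therefore describe the list and support nothing further. The comparisons of a line share their control libraries.

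Set against each other, CoCl2 left 3 genes at lower levels than OD by the limits used. In Caco-2, 1 of 6 genes was called, REG4, 2.44-fold lower with CoCl2 (log2FC -1.28, SE 0.143, FDR = 7.655e-08), where 11.7% of all genes were called (5.21% higher, 6.44% lower). TFF2 (log2FC -0.95, SE 0.161) and TFF1 (log2FC -0.83, SE 0.127) were next and within the limit. TFF2 passed it, at -1.06, without CoCl2 replicate 2 and, at -1.03, without OD replicate 3. In HT-29, 2 of 8 were called, ATOH1 2.43-fold lower (log2FC -1.28, SE 0.365, FDR = 0.00254) and TFF1 2.27-fold lower with CoCl2 (log2FC -1.18, SE 0.265, FDR = 2.444e-04), where 29.9% of all genes were called (10.8% higher, 19.2% lower). SPDEF was also lower with CoCl2 (log2FC -0.79, SE 0.0983, FDR = 5.720e-08), within the limit, and was called at -1.28 with libraries scaled by size alone. For FCGBP, the 95% interval of the difference between the agents ran from -0.03 to 0.47 in HT-29, for TFF3 from -0.20 to 0.42 and for AGR2 from -0.13 to 0.05.

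The responses of the 2 lines were then compared by an interaction term, HT-29 minus Caco-2. For CoCl2, 4 of 9 genes were called, where 21.6% of all genes were (7.79% more positive in HT-29, 13.8% more negative). Among them FCGBP alone had passed the filter in both lines, with the more negative response in HT-29 (-1.26, SE 0.366, FDR = 0.00433). FCGBP lost the call without Caco-2 CoCl2 replicate 3 (-0.98, FDR = 0.0742). TFF2 (2.30, SE 0.482) and SPDEF (-2.12, SE 0.478) entered this fit only through the line where each is high, TFF2 with 2 to 10 counts per control or CoCl2 library of HT-29 and SPDEF with 4 to 10 per such library of Caco-2, so their values are not read as a difference between the lines. For OD, 5 of 9 were called, where 15.2% of all genes were (8.96% more positive in HT-29, 6.24% more negative). TFF1 responded more positively in HT-29 (1.19, SE 0.292, FDR = 0.00117) and FCGBP more negatively (-1.32, SE 0.368, FDR = 0.00376). The values of TFF2 (1.48, SE 0.434) and SPDEF (-1.31, SE 0.463) carry the same limit as with CoCl2, and SPDEF lost the call without Caco-2 control replicate 2 (FDR = 0.0635) or OD replicate 3 (-0.91, FDR = 0.180). The calls of ATOH1 for CoCl2 and of SPINK4 for OD rest on 0 to 3 counts per Caco-2 library and are given no value. The REG4 responses to CoCl2 differed by -0.06 (95% interval -0.43 to 0.31), and to OD it responded more negatively in HT-29, within the fold limit (-0.94, SE 0.155, FDR = 6.872e-06), which became a call at -1.01 without Caco-2 OD replicate 3. TFF3 differed by 0.06 for CoCl2 (95% interval -0.30 to 0.42) and by -0.24 for OD (-0.58 to 0.10).

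Further lists were read beside these genes, without a test of any list. Among all genes tested, CoCl2 called 9.13% higher and 14.2% lower in Caco-2, and 17.4% higher and 23.9% lower in HT-29. The shares over all genes for OD were 4.43% higher and 7.27% lower in Caco-2, and 9.5% higher and 7.57% lower in HT-29, and the counts of each list are to be read against these. Of 34 other goblet cell and mucus genes (mucins, their glycosylation enzymes and secretion factors), CoCl2 called 1 higher and 9 lower of 26 tested in Caco-2, and 2 higher and 16 lower of 27 in HT-29. OD called 2 higher and 4 lower of 26 in Caco-2, and 3 higher and 7 lower of 27 in HT-29. The medians were -0.61 and -1.36 with CoCl2, and -0.23 and -0.12 with OD, in Caco-2 and HT-29.

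Among genes of that list with a mean of at least 50 counts, the largest falls with CoCl2 in HT-29 were in ST6GALNAC1, the enzyme that caps mucin O-glycans with sialic acid (log2FC -4.44, SE 0.273), ERN2, the stress sensor IRE1β of goblet cells (-4.06, SE 0.157), the gastrointestinal calpain CAPN9 (-3.29, SE 0.223) and the gel-forming mucin MUC5AC (-2.55, SE 0.0814). Of these, 3 also fell with OD, ST6GALNAC1 by 3.07, CAPN9 by 2.14 and ERN2 by 1.89 on the log2 scale. MUC5AC, at 117 to 139.9 CPM in controls and 20.1 to 26.1 CPM with CoCl2, stood at 166 to 184 CPM with OD. The membrane mucin MUC17 rose with OD (log2FC 2.57, SE 0.106). In Caco-2, HEPACAM2, a goblet cell membrane protein, fell from 238 ± 7.95 CPM, reaching 33.3 ± 5.06 under CoCl2 and 72.0 ± 2.61 under OD, a log2FC of -2.83 (SE 0.0914) and -1.72 (SE 0.0855). ZG16 rose instead, from 13.3 ± 2.60 CPM, reaching 35.8 ± 4.06 under CoCl2 and 41.9 ± 3.03 under OD, a log2FC of 1.42 (SE 0.124) and 1.64 (SE 0.123). BCAS1 (log2FC -1.57, SE 0.105, with CoCl2) and RAB27A, a GTPase of secretory granules (-1.22 with CoCl2 and -1.07 with OD), fell in Caco-2 as well.

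Of 35 secretory lineage factors and Notch pathway genes, CoCl2 called 2 higher and 13 lower of 33 in HT-29, and 5 higher and 3 lower of 32 in Caco-2, while OD called 0 higher and 4 lower in HT-29 and 2 of each in Caco-2. The median log2FC was -0.72 for CoCl2 and -0.28 for OD in HT-29, and 0.16 and 0.11 in Caco-2. Over all genes, CoCl2 called 41.3% in HT-29 in either direction, a share near that of this list. FOXA3, a factor of goblet cells, fell with CoCl2 in HT-29 (log2FC -2.54, SE 0.109), as did LFNG, which modifies Notch receptors (-2.24, SE 0.0943), the Notch ligand DLL4 (-2.10) and CREB3L4 (-1.95, SE 0.114). FOXA1 fell with CoCl2 in both lines (log2FC -1.60, SE 0.0773, in Caco-2, and 2.84-fold in HT-29), and OD lowered it in HT-29 too (-1.17, SE 0.0574). In Caco-2 the epithelial factor ELF3 rose with both agents (log2FC 2.00, SE 0.0830, and 1.02, SE 0.0818), as it did with CoCl2 in HT-29 (1.83, SE 0.0511), and KLF4, which acts in goblet cell maturation, rose with OD (1.71, SE 0.102).

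Of 32 genes of protein folding and export, the group to which AGR2 belongs by function, most were not called in HT-29 with either agent, and those called were all higher. CoCl2 called 10 higher and 0 lower there, beside 17.4% higher among all genes, and OD 12 higher and 0 lower, beside 9.5%, against 4 higher and 1 lower with CoCl2 and 3 higher and 0 lower with OD in Caco-2. The medians were 0.74 and 0.82 in HT-29 and 0.34 and 0.22 in Caco-2. ERO1A, the oxidase that recharges disulfide isomerases, had 65.5 ± 2.18 CPM in HT-29 controls, and rose there with CoCl2 (632 ± 44.7 CPM) as well as OD (181 ± 16.6 CPM). Caco-2 controls had 102 ± 7.58 CPM, against 689.9 ± 40.2 CPM under CoCl2 and 418 ± 21.0 CPM under OD, also called. HSPA5, the main chaperone of the endoplasmic reticulum, rose in HT-29 by a log2FC of 1.86 (SE 0.0598) with CoCl2 and 1.93 (SE 0.0598) with OD. DNAJB9, its cochaperone, rose in all 4 comparisons, by 1.65 and 1.44 in Caco-2 and by 2.67 and 1.80 in HT-29.

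**Figure D4:**
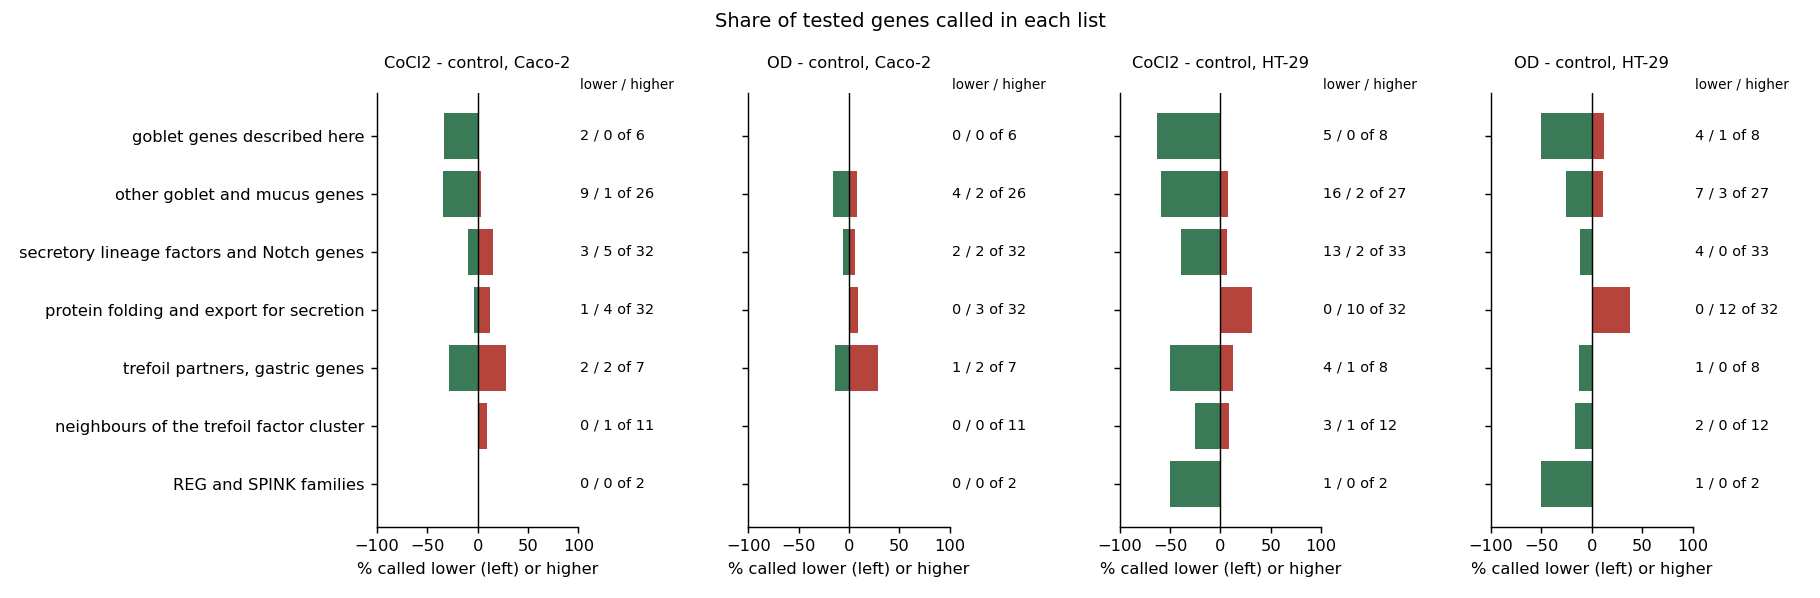
Share of the tested genes of each list called lower (bars to the left) or higher (to the right) than control, in percent, for the 4 comparisons with control, with the counts printed beside the bars. In HT-29 the goblet lists extend mainly to the left, 16 of 27 other goblet and mucus genes with CoCl2, and protein folding and export only to the right, 12 of 32 with OD.

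Of 17 trefoil partners, receptors and gastric genes, 7 or 8 passed the filter. CXCR4, a chemokine receptor reported to answer TFF2, fell in HT-29 with OD (log2FC -2.42, SE 0.0848) and with CoCl2 (-1.03, SE 0.0768), and was called higher in Caco-2 on few counts (3.58, SE 0.353, with CoCl2 and 2.43, SE 0.392, with OD). EGFR fell with CoCl2 in Caco-2 (-1.24, SE 0.0695) and in HT-29 (-1.72, SE 0.0566), and F2RL1, a protease-activated receptor, rose in Caco-2 with CoCl2 (1.82, SE 0.0818) and with OD (1.37, SE 0.0810). The list counted 2 higher and 2 lower with CoCl2 and 2 higher and 1 lower with OD in Caco-2, and 1 higher and 4 lower and 0 higher and 1 lower in HT-29. Of 10 relatives of REG4 and SPINK4, 2 were tested in each line. SPINK5, another Kazal inhibitor, fell in HT-29 with both agents (log2FC -3.16, SE 0.250, and -2.70, SE 0.212), the 1 call in that line for each agent. In Caco-2 neither gene was called in edgeR, with 0 of 2 at an unadjusted p under 0.05 for CoCl2 and 2 of 2 for OD. At an FDR under 0.05 OD had 1 of 2 there, beside 50.4% of all genes.

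The genes that flank the trefoil cluster were read for movement along the chromosome. Of 14 neighbours, CoCl2 called 1 higher and 0 lower of 11 in Caco-2 and 1 higher and 3 lower of 12 in HT-29. OD called 0 of 11 in Caco-2 in edgeR and 0 higher and 2 lower of 12 in HT-29. In Caco-2 with OD, 8 neighbours had an unadjusted p under 0.05 and 7 an FDR under 0.05, beside 50.4% of all genes at that FDR. ZBTB21, 301 kb away, was the gene that rose with CoCl2 in both lines (log2FC 1.02, SE 0.103, and 1.52). TMPRSS3, the nearest tested gene at 5.4 kb beyond TFF1, had 18 to 45 counts in the HT-29 controls, 0 to 2 under CoCl2 and 7 to 15 under OD, and is named here after its values were seen. Its fall with OD had a log2FC of -1.39 (SE 0.321, FDR = 4.442e-04) while TFF1 rose beside it. ABCG1, 14.4 kb from TFF3 on the other side, was called in none of the 4 comparisons (log2FC 0.67 and 0.58 in Caco-2, -0.53 and 0.17 in HT-29).

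**Figure D5:**
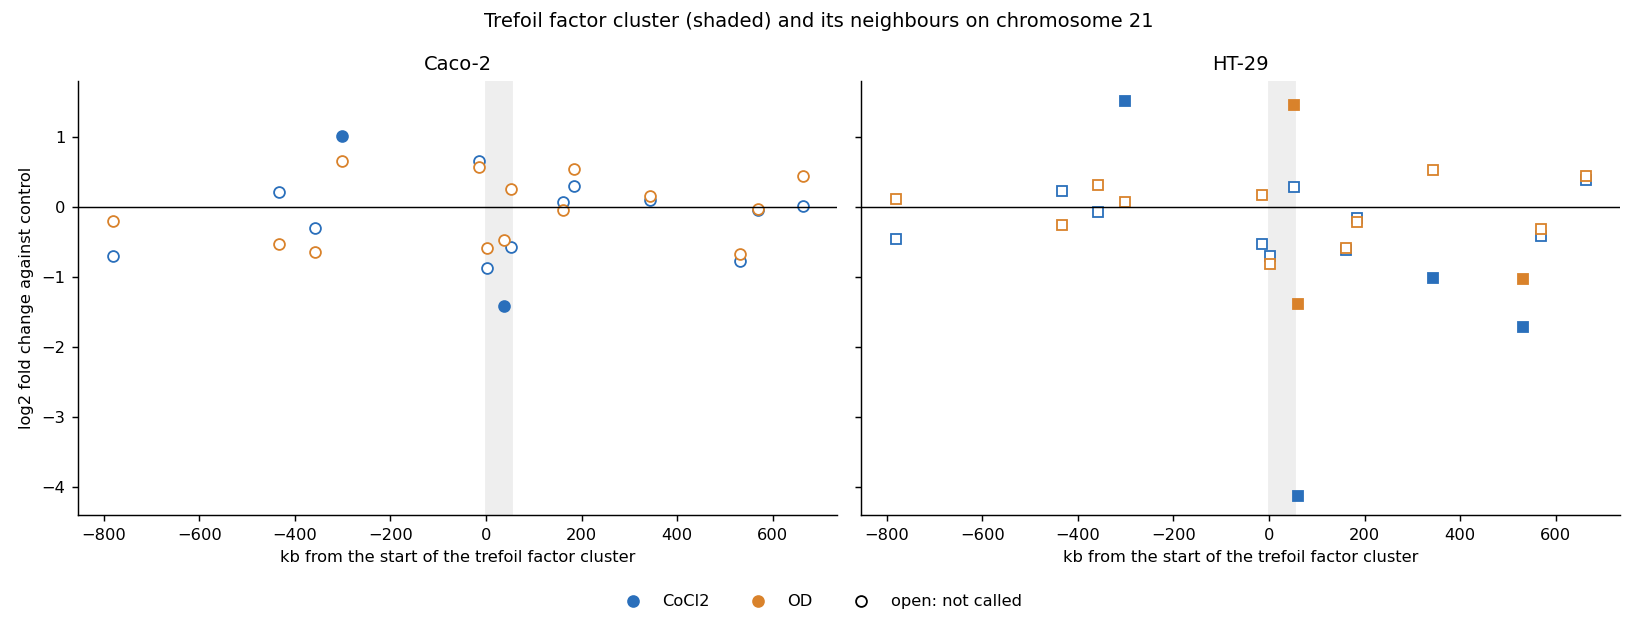
Log2 fold change against control of TFF3, TFF2 and TFF1 (shaded span of 54.9 kb) and of their tested neighbours, by distance in kb along chromosome 21, for CoCl2 (blue) and OD (orange); filled symbols were called. In HT-29 TFF1 with OD at 1.47 lies next to TMPRSS3 with OD at -1.39, and the lowest point is TMPRSS3 with CoCl2, which rests on 0 to 2 counts per treated library.

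For members with at least 100 counts on average, the genes whose values ran most alike over the 9 libraries of a line were sought among 10375 genes in Caco-2 and 10398 in HT-29, by the root mean square difference of log2 CPM relative to control. For REG4 these were GALNT5 in Caco-2 (0.127) and PIGW in HT-29 (0.162). FCGBP in HT-29 was matched by ZBED6CL (0.0982) and SPDEF by C11orf95 (0.0605). TFF2 in Caco-2 lay nearest to DIO1 (0.105), and TFF3 to TOMM34 (0.0631). None of these genes is on the lists above.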

How the data were processed

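mRNA was sequenced in 18 libraries as single-end reads with a stranded kit. Per the labels, the authors deposited a table of unnormalised counts by gene and, separately for each line, log2 values of RPKM plus 1 for genes they kept (13153 in Caco-2, 12431 in HT-29). The submitters' processing notes name cutadapt 2.10, STAR 2.7.5b, GRCh38.p13, GENCODE and edgeR 3.30.3. The counting tool and its strand setting are not given in the sources used here, which leaves SPINK4 and the antisense BAG1 open to shared reads. The miRNA libraries and tables were not used here.

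The counts were tested with edgeR 4.0.16 (R 4.3.3), quasi-likelihood F test, TMM scaling and filterByExpr, with 1 coefficient per group. Each line was fitted alone on 9 libraries, and comparisons between lines used all 18. P-values were adjusted by Benjamini-Hochberg over all genes tested (16034 in Caco-2, 15812 in HT-29, 17921 over both). The SE was taken as the size of the log2FC over the square root of F. Intervals of pooled count ratios and the floor of 3 counts cover counting error only. Replicates differed by more than sampling noise (chi-square per degree of freedom 2.94 to 8.56), so all were kept. The procedure was tested on simulated data with known changes in a small part of the genes, as many higher as lower. That setting cannot show how the scaling behaves where a large part of the genes changes, as with CoCl2 here.

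The 10 genes, the lists and the motifs were chosen with earlier results of these data known. All 10 genes are named, and from each list up to 4 called genes per comparison with the largest log2FC among those with a mean of at least 50 counts, with their values in other comparisons. Other neighbours named were chosen after their values were seen. Alternatives were other scalings and filters, DESeq2 1.42.0, limma 3.58.1 on the deposited log2 values, 1 fit over 18 libraries, a replicate block and leaving out each library.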

Additional observations from a re-analysis of the deposited data

Results flagged for a closer look

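The difference between the lines in the response to CoCl2, HT-29 minus Caco-2 on the log2 scale, was past an FDR of 0.05 by edgeR's interaction test for TFF2 (2.30), FCGBP (-1.26), SPDEF (-2.12) and AGR2 (0.35). For OD the same test passed for TFF1 (1.19), TFF2 (1.48), FCGBP (-1.32), SPDEF (-1.31), AGR2 (0.52) and REG4 (-0.94). Over all genes, 8916 of 17921 passed that FDR for CoCl2 and 7682 for OD. ATOH1 for CoCl2 and SPINK4 for OD also passed, on 0 to 3 counts per Caco-2 library, and are given no value. TFF2 had 2 to 13 counts per HT-29 library and SPDEF 4 to 13 per Caco-2 library, and each entered this fit only through the other line, so that their values are not read as a difference between the lines. FCGBP had 5 to 21 counts per Caco-2 library. For AGR2 the CoCl2 difference became 0.14 (FDR = 0.172) with libraries scaled by size alone. Line, medium and culture cannot be told apart in these differences.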

How the results depend on the processing

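Over 1080 alternative values for single genes, 1017 kept their direction and side of the threshold, 17 lost and 28 gained a call, and 18 turned sign. With no fold limit the genes called against control numbered 4 (CoCl2) and 3 (OD) in Caco-2, and 7 (CoCl2) and 8 (OD) in HT-29. For CoCl2 against OD they numbered 4 in each line. Over all genes, those called against control were 10370 and 8084 of 16034 in Caco-2, and 13097 and 10876 of 15812 in HT-29. For CoCl2 against OD it was 7957 of 16034 in Caco-2 and 12286 of 15812 in HT-29. With limma on the deposited values, log2 of RPKM plus 1, the called genes of this list numbered 2 for each agent in HT-29 and 0 in each line for CoCl2 against OD. Over all genes that was 2520 (CoCl2) and 744 (OD) of 12431 in HT-29. For CoCl2 against OD it was 341 of 13153 in Caco-2 and 1455 of 12431 in HT-29. The deposited table lists 5 of the 10 genes in Caco-2 and 6 in HT-29, without ATOH1 and SPINK4. Fewer genes, another scale and another method thus changed together, and comparisons between lines were not fitted. Leaving out a library gave 2 to 2 (CoCl2) and 0 to 0 (OD) in Caco-2, 5 to 6 for either agent in HT-29 (the sixth being TFF2, higher with CoCl2 without control replicate 2 or CoCl2 replicate 3, and with OD without control replicate 2 or 3 or OD replicate 2), 1 to 2 and 2 to 2 for CoCl2 against OD, 3 to 4 and 4 to 5 for the differences between lines, and 7 to 7 between the controls. Library size alone moved the median of all genes by -0.32 (CoCl2) and -0.15 (OD) in Caco-2, by -0.63 and -0.14 in HT-29, by -0.17 and -0.50 for CoCl2 against OD, and by -0.20 for the difference between lines with CoCl2. All genes called higher and lower then went from 1464 and 2283 to 870 and 3546 (CoCl2, Caco-2), from 711 and 1165 to 500 and 1644 (OD, Caco-2), from 2749 and 3775 to 1295 and 6250 (CoCl2, HT-29), from 1502 and 1197 to 1225 and 1596 (OD, HT-29), from 835 and 1033 to 602 and 1524 and from 1702 and 3032 to 783 and 5279 (CoCl2 against OD), and from 1396 and 2479 to 1005 and 3319 (difference between lines, CoCl2). That scaling called 3 genes for CoCl2 against OD in each line, SPDEF (-1.28) being added in HT-29, and turned TFF1 (-0.34) and AGR2 (-0.29) with CoCl2 in HT-29, FCGBP (-0.11) and AGR2 (-0.12) in Caco-2 and TFF3 (-0.38) and FCGBP (-0.28) in HT-29 for CoCl2 against OD, and the TFF3 difference between lines with CoCl2 (-0.14). That difference also turned without single libraries (range -0.059 to 0.24), and that of REG4 with DESeq2 (0.050), RLE factors (0.048) or without HT-29 CoCl2 replicate 2 (range -0.25 to 0.049). In Caco-2, FCGBP turned without OD replicate 1 for OD (range -0.62 to 0.040), and without OD replicate 1 or CoCl2 replicate 3 for CoCl2 against OD (range -0.30 to 0.36), where AGR2 turned without OD replicate 3 (range -0.017 to 0.14). Replicate numbers did not pair the libraries: deviations of same-numbered libraries correlated by -0.06 to 0.07 in Caco-2 and -0.04 to 0.02 in HT-29, and 6 of 18 libraries matched best with their own number. With a replicate block the genes called numbered 2, 0, 5 and 5 against control, 1 and 2 for CoCl2 against OD, 4 and 5 for the differences between lines and 7 between controls, as without it. The causes were not tested. Depth limits CLCA1 everywhere and ATOH1, SPINK4, SPDEF and FCGBP in Caco-2.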
